A study of Mus musculus with 29 samples.

Results

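The voltage-gated sodium channel genes described here were 4 genes for alpha subunits (*Scn1a*, *Scn3a*, *Scn8a* and *Scn9a*) and 3 for beta subunits (*Scn2b*, *Scn3b* and *Scn4b*). They were chosen by gene symbol, and all 7 were found among the 24062 genes of the RNA-seq table. Expression was measured in 15 RNA-seq libraries, 3 from each of 5 populations sorted from mouse retina, and open chromatin in 12 ATAC-seq libraries, 2 from each of 6. All bipolar cells (pan-BC) were sorted for RNA-seq from *Otx2*-GFP+/- mice at postnatal day 44 to 47. ON and OFF bipolar cells (ON-BC and OFF-BC) came from *Otx2*-GFP+/-; *Grm6*-YFP+/+ mice at day 42 to 48, and OFF-BC were sorted a second time. The labels give this double genotype for the bipolar ATAC-seq libraries as well, from mice at day 42 to 46. Rods came from *Nrl*-eGFP mice, blue cones are photoreceptors of *Nrl*-eGFP;*Nrl*KO mice, which stand in for blue cones, and green cones (ATAC-seq only) came from *Opn1mw*-GFP mice, all at day 56 and all re-analysed from an earlier data set. Bipolar and photoreceptor libraries thus differ in cell class, study and age together, and these cannot be told apart. In the sorted mice GFP is inserted at the end of the *Otx2* coding sequence on 1 allele and YFP is driven by the *Grm6* promoter, so a type of ON bipolar cell with little *Grm6* is probably missing from both the ON-BC and the OFF-BC gate. *Lrrtm1*, its marker, had a mean normalized count of 448 in pan-BC, 94.7 for ON-BC and 79.8 in OFF-BC.

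An alpha subunit forms the pore of the channel, opens when the membrane is depolarized and lets sodium ions in, which is what drives an action potential. Beta subunits are single-pass membrane proteins that bind to alpha subunits, change their gating and help to hold them in the membrane. Bipolar cells were long regarded as neurons that signal by graded potentials alone, but voltage-gated sodium currents have been recorded from some types. Rods and cones respond to light with graded potentials.

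Counted reads per library ranged from 12329548 to 26266746 (RNA-seq) and from 4176776 to 12345845 (ATAC-seq), and the values below are normalized counts, that is reads divided by 1 size factor per library. The populations were checked against their defining markers. *Grm6*, the glutamate receptor of ON-BC, had a mean of 13499 ± 299.7 for ON-BC and 268 ± 284 in OFF-BC, and *Grik1*, the kainate receptor subunit of OFF-BC, had 469 ± 93.8 and 38804 ± 10846 (SD, n = 3). Of the other OFF-BC markers listed, *Tacr3* (13.1 ± 9.55 and 2094 ± 568) and *Lhx4* (3110 ± 1089 and 8387 ± 1662) were also higher in OFF-BC. *Vsx1* went the other way, with 975 ± 111 for ON-BC and 287 ± 97.1 in OFF-BC. Transcripts of other cells were present: the summed level of 5 cone genes was 22366, 20732 and 89734 in the 3 OFF-BC libraries, and that of 4 rod genes (*Gnat1*, *Nrl*, *Nr2e3* and *Pde6b*) was 4678 to 6550 across ON-BC libraries and 442 to 652 across OFF-BC. The 7 ganglion cell markers, of a cell type rich in sodium channels, summed to 94.2 to 118 across pan-BC libraries, to 48.99 to 85.2 across ON-BC and to 29.1 to 65.1 across OFF-BC, and 4 of them (*Pou4f2*, *Pou4f3*, *Slc17a6* and *Isl2*) were at 0 in every OFF-BC library. They summed to 21.6 to 26.6 for rods and 159 to 199 in blue cones, where most of the sum was *Pou4f1* (129 ± 24.6). The 6 amacrine cell markers summed to 226 to 351 for ON-BC, 734 to 940 in OFF-BC and 2068 to 2427 for rods. In rods nearly all of this was *Slc6a9*, a glycine transporter gene (2271 ± 199), and the other 5 summed to 69.1 to 189 for ON-BC, 224 to 340.004 in OFF-BC and 0 to 21.5 for rods. In bulk samples, fewer cells of a type and less RNA per cell cannot be told apart.

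The genes lie in 3 places in the mouse genome (GRCm38). On chromosome 2 they form part of the cluster of alpha subunit genes, on the minus strand, with *Scn3a* at chr2:65457118-65567591, *Scn1a* at chr2:66270781-66440837 and *Scn9a* at chr2:66480080-66635114. *Scn8a* lies apart at chr15:100869863-101045938 on the plus strand. The beta subunit genes are on the plus strand of chromosome 9, *Scn3b* at chr9:40269216-40291618 and, as neighbours, *Scn2b* at chr9:45117876-45130070 and *Scn4b* at chr9:45138624-45154155. The reads carried no strand, so exonic reads of *Scn9a* cannot be told apart from those of the antisense RNA Gm13629, with which it shares exonic sequence.

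Of 110715 regions in the ATAC-seq table, each 200 bp long, 41 lay nearest to a transcription start site of one of the 7 genes. The following were chosen for display because the comparisons below turn on them: the promoter regions of *Scn3a* and *Scn2b*, with a choice of the intronic and upstream regions that were called between populations. Each is written 5′ to 3′ on the strand of the gene, from the GRCm38 sequence of RefSeq. Capitals mark matches, on either strand, to TAATCC (the core of sites bound by K50 homeodomain factors such as OTX2 and CRX), to TAATTA or TAATTG (Q50 homeodomain factors) and to CAGNTG (E-boxes, bound by bHLH factors). A match is a description of letters and not evidence of binding.
Scn3a promoter, 131 bases upstream of the gene, chr2:65567592-65567722, minus strand: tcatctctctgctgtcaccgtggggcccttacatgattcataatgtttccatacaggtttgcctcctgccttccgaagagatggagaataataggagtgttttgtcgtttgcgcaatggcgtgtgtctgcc
Scn3a intron, 73351 bp from the start site, chr2:65494042-65494241, minus strand: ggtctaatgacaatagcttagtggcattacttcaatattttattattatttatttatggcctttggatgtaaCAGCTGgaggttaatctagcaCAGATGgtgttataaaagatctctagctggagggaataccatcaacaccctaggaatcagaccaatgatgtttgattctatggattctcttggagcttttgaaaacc
Scn3a intron, 34824 bp from the start site, chr2:65532569-65532768, minus strand: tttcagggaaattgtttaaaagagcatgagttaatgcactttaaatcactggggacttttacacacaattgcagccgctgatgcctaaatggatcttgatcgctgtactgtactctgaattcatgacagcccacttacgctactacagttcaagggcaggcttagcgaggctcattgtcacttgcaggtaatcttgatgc
Scn9a intron, 96064 bp from the start site, chr2:66538799-66538998, minus strand: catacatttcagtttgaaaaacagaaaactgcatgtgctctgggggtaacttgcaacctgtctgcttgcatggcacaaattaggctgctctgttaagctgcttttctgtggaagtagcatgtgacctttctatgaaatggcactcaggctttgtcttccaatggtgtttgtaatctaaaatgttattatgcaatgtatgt
Scn1a intron, 72645 bp from the start site, chr2:66368093-66368292, minus strand: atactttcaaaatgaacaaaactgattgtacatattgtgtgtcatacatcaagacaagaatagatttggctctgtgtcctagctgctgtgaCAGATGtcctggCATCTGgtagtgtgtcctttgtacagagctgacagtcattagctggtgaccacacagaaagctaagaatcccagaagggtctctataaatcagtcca
Scn8a upstream, 9480 bp before the start site, chr15:100861066-100861265, plus strand: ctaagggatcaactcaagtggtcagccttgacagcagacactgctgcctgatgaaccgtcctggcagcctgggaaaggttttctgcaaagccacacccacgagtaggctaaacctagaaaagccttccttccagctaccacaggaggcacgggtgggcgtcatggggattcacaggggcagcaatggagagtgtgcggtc
Scn8a intron, 16294 bp from the first start site, chr15:100886840-100887039, plus strand: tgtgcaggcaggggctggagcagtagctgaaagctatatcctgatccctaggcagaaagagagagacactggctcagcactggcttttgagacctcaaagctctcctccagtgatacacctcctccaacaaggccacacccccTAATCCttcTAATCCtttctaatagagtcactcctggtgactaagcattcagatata
Scn8a intron, 54286 bp from the nearest start site, chr15:100990458-100990657, plus strand: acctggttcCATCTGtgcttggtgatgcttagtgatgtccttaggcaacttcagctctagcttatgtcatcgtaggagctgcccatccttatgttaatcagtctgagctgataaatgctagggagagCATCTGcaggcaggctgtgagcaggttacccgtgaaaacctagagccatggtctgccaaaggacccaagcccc
Scn8a intron, 49915 bp from the start site of Fignl2, chr15:101004385-101004584, plus strand: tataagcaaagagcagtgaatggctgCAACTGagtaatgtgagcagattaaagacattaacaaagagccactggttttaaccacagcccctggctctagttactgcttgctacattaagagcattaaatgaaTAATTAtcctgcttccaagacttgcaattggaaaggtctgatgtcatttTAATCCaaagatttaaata
Scn2b promoter, 146 bases upstream of the gene, chr9:45117730-45117875, plus strand: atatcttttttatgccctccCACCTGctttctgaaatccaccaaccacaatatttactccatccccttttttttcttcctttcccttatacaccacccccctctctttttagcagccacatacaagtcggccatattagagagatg

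*Scn8a* was the only one of the 4 alpha subunit genes with reads in every library. Its protein is the main alpha subunit of mature axons. Normalized counts were 1468, 1400.2 and 1608 in pan-BC, 1649, 1721 and 1539 for ON-BC, and 1176, 1574 and 1429 in OFF-BC. They were 929, 864 and 863 for rods and 743, 495 and 477 in blue cones. The ranges of the 3 bipolar populations overlapped one another, every bipolar library was above every rod library, and every rod library was above every blue cone library. The mean in pan-BC was 2.61-fold that in blue cones, a log2 difference of 1.41 ± 0.15 (SE, adjusted p = 0.0198, limma against a log2 fold change of 1). Against rods the log2 difference was 0.75 ± 0.15, which did not pass (adjusted p = 1, limma). The call against blue cones was lost with TMM scaling (adjusted p = 0.0531), with only the 2 populations in the fit (0.0564), and without pan-BC replicate 3 (0.0715), blue cone replicate 2 (0.0931) or blue cone replicate 3 (0.0978), all by limma.

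*Scn1a* and *Scn3a* set bipolar cells apart from photoreceptors. *Scn1a* encodes an alpha subunit of central neurons, many of them inhibitory, and *Scn3a* one that is prominent in embryonic brain. *Scn1a* counts were 440.4, 342 and 455 in pan-BC, 235, 385 and 242 for ON-BC, and 578, 805 and 481 in OFF-BC. In rods they were 0.970, 1.02 and 4.32, made of 6 reads in all, and no read was counted in the 3 blue cone libraries. *Scn3a* counts were 601, 566 and 667 in pan-BC, 305, 384 and 313 for ON-BC, and 1171, 1396 and 1230.4 in OFF-BC. In photoreceptors they were 0, 0 and 5.40 for rods and 4.51, 1.52 and 4.44 in blue cones. Neither gene's bipolar libraries came near those of photoreceptors.

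Pooled over libraries, the level of *Scn1a* in pan-BC was 200.02-fold that in rods (95% interval from the counting of reads 91.6 to 546). Against blue cones it was at least 183-fold higher, taking 3 reads per library as the limit that a count of 0 allows. *Scn3a* was in pan-BC 357-fold its level in rods (interval 152 to 1099) and 174-fold that in blue cones (103 to 318). These exact binomial intervals cover counting error only, and replicates varied by more. On the log2 scale the differences of *Scn1a* and *Scn3a* between pan-BC and rods were 7.21 ± 0.37 and 8.36 ± 0.52 (SE), and both passed limma's test (adjusted p = 9.2e-11 and 1.0e-09).

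*Scn9a*, whose protein is known from pain-sensing neurons, was measured at 0 to 24.0 normalized counts, with at most 20 reads in a library. It did not pass the filter on low counts and was not tested. The 3 libraries held 30 reads in pan-BC, 13 for ON-BC, 32 in OFF-BC, 4 for rods and 7 in blue cones. The range was 6.38 to 17.1 in pan-BC and 6.62 to 24.0 in OFF-BC, but ON-BC (0 to 7.84) overlapped both and overlapped photoreceptors, which reached 4.44.

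**Figure D1:**
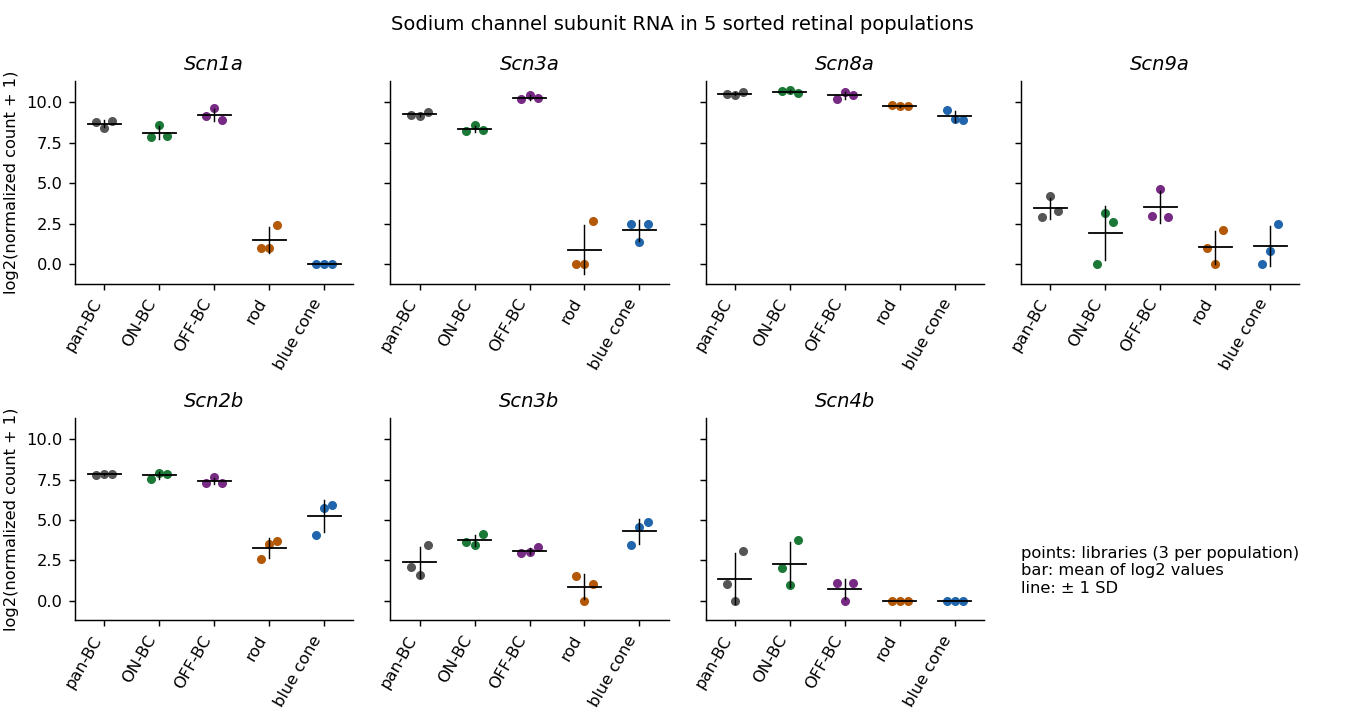
Normalized counts of the 7 sodium channel genes on the scale of log2(normalized count + 1) in the 3 RNA-seq libraries of each of 5 sorted populations; bars are means and lines ± 1 SD. *Scn1a* and *Scn3a* lay between 235 and 1396 normalized counts in bipolar libraries and at or below 5.40 in photoreceptor libraries, while *Scn8a* was at 477 or more in every library.

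Of the 3 beta subunit genes, *Scn2b* had the highest level per exon length in bipolar cells. Its protein is linked to alpha subunits by a disulfide bond. Normalized counts were 223, 227 and 231 in pan-BC, 183, 236 and 229 for ON-BC, and 158, 199 and 153 in OFF-BC. They were 4.85, 10.2 and 11.9 for rods and 15.8, 52.4 and 59.2 in blue cones, so blue cones lay above rods and below every bipolar library. The log2 difference between pan-BC and rods was 4.59 ± 0.40 (SE, adjusted p = 2.9e-07, limma) and that between pan-BC and blue cones 2.59 ± 0.40 (adjusted p = 0.00181, limma). Between rods and blue cones it was -1.997 ± 0.40 and did not pass (adjusted p = 0.0685, limma), but it did by edgeR (0.00745), by DESeq2 (0.0214), with library total scaling (0.0479), without blue cone replicate 1 (4.9e-04) and without rod replicate 3 (0.0423).

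*Scn3b* had few reads, and its order among the populations was unlike that of the other genes tested. Its protein binds to alpha subunits without a disulfide bond. Normalized counts were 9.78, 22.8 and 28.1 in blue cones, 11.4, 9.80 and 16.4 for ON-BC, 6.71, 7.21 and 8.83 for OFF-BC, 3.19, 2.02 and 9.79 in pan-BC, and 1.94, 0 and 1.08 for rods. Rods were below every other library. The log2 difference of rods from blue cones was -3.42 ± 0.56 (SE, adjusted p = 0.0022, limma), and that of ON-BC from rods 2.86 ± 0.56 (adjusted p = 0.00575, limma), which was lost with a pseudocount of 5 (0.147). That of pan-BC from rods, 1.49 ± 0.56, did not pass (adjusted p = 0.377, limma). Markers of other cells were also higher in every blue cone library than in any rod library: the 7 ganglion cell markers, given above, and the 4 microglia markers, which summed to 190 to 323 in blue cones and 43.0 to 60.5 for rods. The part of other cells in the higher *Scn3b* and *Scn2b* of blue cones was not tested.

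*Scn4b*, the other disulfide-linked beta subunit, was at or near the limit of counting. It was at 0 in all 6 photoreceptor libraries, with 7 reads in pan-BC, 16 for ON-BC (12 of them in replicate 3) and 2 in OFF-BC. It was not tested.

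Of the 5 genes tested, 3 were called higher for pan-BC than for rods (*Scn1a*, *Scn3a* and *Scn2b*), where 27.8% of all tested genes were called in that direction, and 4 higher than in blue cones (with *Scn8a*), against 22.7%. ON-BC were called higher than rods for 4 (with *Scn3b*; 26.2% of all genes) and higher than blue cones for the same 4 as pan-BC (21.1%). OFF-BC were called higher than rods for *Scn1a*, *Scn3a* and *Scn2b* (27.1%) and than blue cones for the same 3 (21.8%). Against rods *Scn3b* just missed the threshold in OFF-BC (log2 difference 2.22 ± 0.56, adjusted p = 0.050006, limma). It passed by edgeR (0.0329), and by limma with a pseudocount of 0.5 (0.0263), library total scaling (0.0258), only the 2 populations in the fit (0.0418) or without rod replicate 1 (0.0278). Only *Scn3b* was called between rods and blue cones, higher in blue cones, as 11.3% of all genes were. In this fit no member was called lower in a bipolar than in a photoreceptor population, but *Scn3b* was called lower in pan-BC than in blue cones by edgeR (log2 difference -2.14, adjusted p = 0.0327) and by limma without pan-BC replicate 3 (-2.46, adjusted p = 0.0318). With all libraries that difference was -1.92 ± 0.56 (SE) and did not pass (adjusted p = 0.143, limma). These comparisons share their libraries and are not independent.

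**Figure D2:**
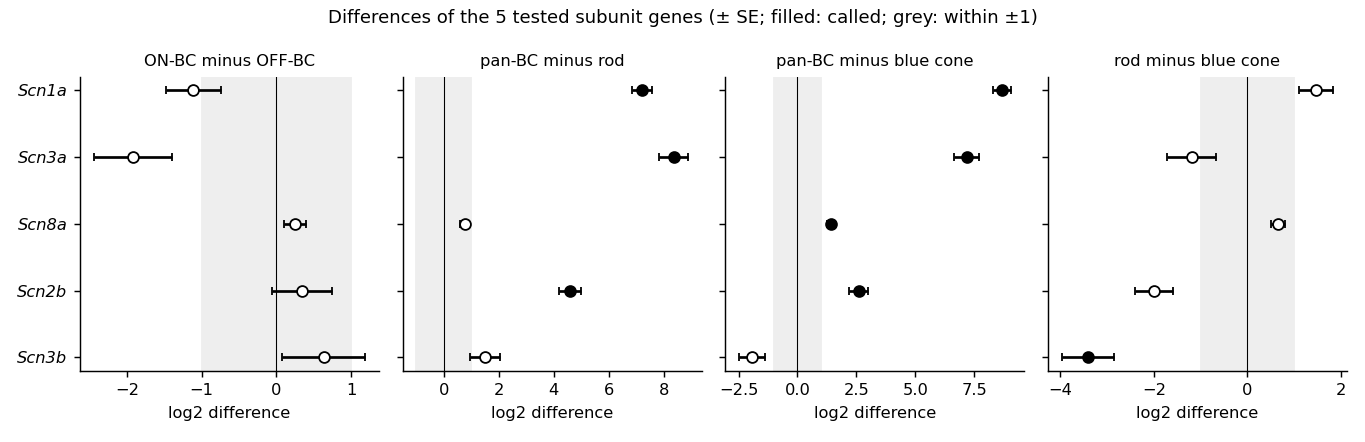
Log2 differences of the 5 tested sodium channel genes in 4 comparisons, on the log2(normalized count + 1) scale, with SE; filled points passed limma's test against a log2 fold change of 1 (grey band). *Scn1a*, *Scn3a* and *Scn2b* were at 2.59 or more in pan-BC against either photoreceptor type, and *Scn3b* was at -3.42 for rods against blue cones; the fitted value of *Scn1a* against blue cones is no bound, since all 3 blue cone libraries were at 0.

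The order of the populations differed between genes. For *Scn1a* and *Scn3a* it was OFF-BC, pan-BC, ON-BC and then photoreceptors, and the only neighbours that differed by the test were ON-BC and the next photoreceptor type. For *Scn8a* it was ON-BC, pan-BC, OFF-BC, rod and blue cone, with no neighbours called. For *Scn2b* it was pan-BC, ON-BC, OFF-BC, blue cone and rod, and the step called was from OFF-BC to blue cones (log2 difference 2.17 ± 0.40, adjusted p = 0.0148, limma). That step was lost with only the 2 populations in the fit (0.0510), without OFF-BC replicate 2 (0.0528) and without blue cone replicate 1 (0.0942). The order of *Scn3b* began with blue cones, then ON-BC, OFF-BC, pan-BC and rods, with no neighbours called.

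The ON-BC and OFF-BC libraries were compared to ask whether the sodium channel genes differ between the 2 classes of bipolar cell, which respond to light with opposite changes in voltage. The authors estimate that rod bipolar cells make up most of their ON population, which also holds ON cone bipolar cells. Response to light and rod against cone bipolar type thus cannot be told apart in this comparison. Of the 5 genes tested, *Scn3a* had the largest difference. Its mean was 1266 ± 117 in OFF-BC and 334 ± 43.4 for ON-BC (SD, n = 3), 3.79-fold higher in OFF-BC, with the lowest OFF-BC library at 1171 and the highest ON-BC library at 384. With all 15 libraries in 1 fit the log2 difference of ON-BC from OFF-BC was -1.92 ± 0.52 (SE) and did not pass (adjusted p = 0.487, limma). The spread in that fit is taken over all populations, rods included, where *Scn3a* was at 0, 0 and 5.40. With only the 9 bipolar libraries in the fit, an alternative added after the values were seen, the adjusted p was 1.1e-04 (limma). It was 0.00143 with only the 6 ON-BC and OFF-BC libraries, 0.0194 with a pseudocount of 5, 4.3e-04 by edgeR and 2.1e-07 by DESeq2, which use counts.

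*Scn1a* was 2.16-fold higher in OFF-BC (621 ± 166 against 287 ± 84.6, SD, n = 3), and its libraries did not overlap, from 481 upwards in OFF-BC and up to 385 for ON-BC. The log2 difference of -1.11 ± 0.37 (SE) did not pass against a log2 fold change of 1 (adjusted p = 1, limma), and passed against no change (adjusted p = 0.0317, limma). *Scn8a* differed by 0.24 ± 0.15 and *Scn2b* by 0.34 ± 0.40, and for both the libraries overlapped. *Scn3b* was higher in every ON-BC library than in any OFF-BC library, at 9.80 to 16.4 against 6.71 to 8.83, with a log2 difference of 0.63 ± 0.56 (adjusted p = 1, limma).

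Between ON-BC and OFF-BC, 0 of the 5 tested genes were thus called by limma in the fit to all libraries, where 6.55% of all genes were. *Scn3a* was called by edgeR and DESeq2, and it was also the only member with an unadjusted p under 0.05 in limma (0.0480). The libraries of 3 genes did not overlap, where 42.2% of all genes did so. Leaving out any 1 of the 6 libraries gave no call in this fit. Markers of other cells differed between the 2 classes too. The sum of cone markers was higher in every OFF-BC library than in any ON-BC library (20732 or more against 4666 or less), and so was that of amacrine cell markers. In OFF-BC replicates 1, 2 and 3, where *Scn3a* was at 1171, 1396 and 1230.4, the 5 cone markers summed to 22366, 20732 and 89734 and the 6 amacrine cell markers to 734, 940 and 862. Without *Slc6a9* the latter were 273, 340.004 and 224. The part of cone and amacrine RNA in the differences of *Scn3a* and *Scn1a* was not tested. In pan-BC, both genes lay between ON-BC and OFF-BC in every library but 1 for *Scn1a*, replicate 2, which at 342 was inside the range of ON-BC. No member was called between pan-BC and ON-BC, where 1.06% of all genes were, or between pan-BC and OFF-BC, where 3.37% were.

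Levels were compared between genes as reads per exon kb, divided by the library's total in units of 1e6 reads. *Scn8a* was at 9.24 ± 0.84 for ON-BC, 7.91 ± 1.52 in OFF-BC, 3.92 ± 0.45 for rods and 2.66 ± 0.80 in blue cones (SD, n = 3). *Scn3a* was at 2.204 ± 0.35 for ON-BC and 8.37 ± 1.165 in OFF-BC, close to *Scn8a* in the latter. *Scn1a* was at 2.24 ± 0.73 and 4.85 ± 1.47, and the beta subunit *Scn2b* at 3.05 ± 0.43 and 2.42 ± 0.46. The 4 alpha subunit genes summed to 14.2 to 17.4 in pan-BC, 12.2 to 15.8 for ON-BC, 17.9 to 25.6 in OFF-BC, 3.54 to 4.42 for rods and 2.194 to 3.60 in blue cones.

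The shares within a library do not depend on how libraries are scaled. *Scn8a* made up 63.6% to 70.8% of the summed level per length of the 4 alpha subunit genes in ON-BC, 52.8% to 54.9% in pan-BC and 35.2% to 40.4% in OFF-BC. In rods and blue cones it made up 97.9% or more. *Scn3a* made up 15.3% to 16.6% in ON-BC and 37.6% to 40.9% in OFF-BC. The ratio of *Scn3a* to *Scn8a* was 0.216 to 0.260 for ON-BC, 0.472 to 0.484 in pan-BC and 1.00 to 1.16 in OFF-BC. The 3 ON-BC and 3 OFF-BC ratios did not overlap, which gives a two-sided exact permutation p = 0.1, the smallest that 3 against 3 libraries allow.

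**Figure D3:**
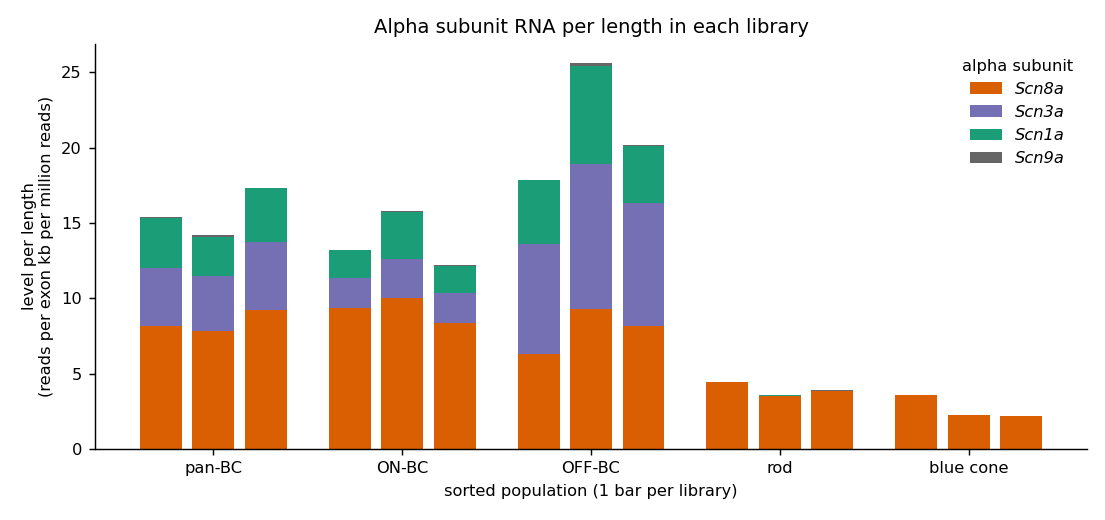
Level per length (reads per exon kb and per 1e6 reads of the library) of the 4 alpha subunit genes, stacked, with 1 bar for each of 15 libraries. *Scn8a* is 97.9% or more of the bar in rods and blue cones, and *Scn3a* is 15.3% to 16.6% in ON-BC and 37.6% to 40.9% in OFF-BC.

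The closest alpha subunit gene outside this group, *Scn2a1*, the gene for the Nav1.2 channel of axons, followed *Scn1a* and *Scn3a*. It had a mean normalized count of 554 ± 13.1 in pan-BC, 460 ± 72.5 for ON-BC, 701 ± 119 in OFF-BC, 4.53 ± 4.17 for rods and 7.01 ± 5.02 in blue cones (SD, n = 3). Per length it made up 18.4% to 21.1% of the sum of 5 alpha subunit genes in every bipolar library. These genes are similar in sequence, and reads that fit several of them may have been lost or split in counting.

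Among further subunit genes in the table, *Scn4a*, known from skeletal muscle, was called higher in ON-BC than in OFF-BC (129 ± 18.8 against 30.6 ± 10.4, log2 difference 2.09 ± 0.31, adjusted p = 0.0257, limma), where 2.95% of all genes were called higher in ON-BC. It was highest in rods (341 ± 37.3). The sum of 4 rod genes was also higher in every ON-BC library than in any OFF-BC library, and the part of rod RNA in this result was not tested.

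Other subunit genes reached 0 in a whole population, as some members did. *Scn7a*, a sodium-sensing relative, was at 0 in blue cones and at means of 4.75 to 9.53 elsewhere. *Scn11a* had means of 17.7 ± 9.84 in OFF-BC, 2.91 ± 2.61 in pan-BC and 0.344 ± 0.596 for ON-BC and was at 0 in photoreceptors, and *Scn10a* had means of at most 0.336 and was at 0 in ON-BC, OFF-BC and rods. Neither of the last 2, both known from sensory ganglia, was tested.

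Among 10 genes whose proteins bind or anchor sodium channels, 7 were called higher for pan-BC than for rods, where 27.8% of all genes were, and 1, *Nedd4l*, lower, where 15.8% were. Named after their values were seen, the 7 were *Fgf11*, *Fgf12*, *Fgf13* and *Fgf14*, the intracellular fibroblast growth factors that bind the tail of alpha subunits, with *Ank3* and *Sptbn4*, the ankyrin and spectrin of the axon initial segment, and the adhesion gene *Nrcam*. *Fgf12* had means of 1817 ± 61.1 (pan-BC) and 20.02 ± 7.14 (rods), with a log2 difference of 6.49. *Sptbn4* was at 88.9 ± 19.2 in pan-BC and at 0 in rods. Against blue cones 7 were again called higher (22.7% of all genes), with *Nfasc* in place of *Nrcam*, and 2 lower, *Nrcam* and *Nedd4l*, in a direction in which 13.7% of all genes were called. *Nfasc*, for the adhesion protein that clusters channels at nodes and initial segments, was the only one of the 10 called between ON-BC and OFF-BC (4017 ± 647 against 1431 ± 134, log2 difference 1.48 ± 0.13, adjusted p = 0.0174, limma), in a direction in which 2.95% of all genes were called.

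The sodium leak channel, which is open at rest and is not gated in the same way, gave a further comparison. Of its 4 genes, *Nalcn*, *Unc79* and *Fam155a* were called higher in pan-BC than in either photoreceptor type, as 27.8% of all genes were against rods and 22.7% against blue cones, and *Unc80* was not. None was called between ON-BC and OFF-BC by limma, where 6.55% of all genes were. The median log2 difference between pan-BC and rods was 5.64 over these 4 genes, 3.59 over the 10 binding partners, 4.59 over the 5 members tested and 0.21 over all genes tested.

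The genes with the most similar pattern over the 15 libraries were named by Pearson's r of log2(normalized count + 1), with no test. For *Scn3a* they were *Glra1* (r = 0.997), *Hcn3* (0.996) and *Rnf182* (0.995), among 945 genes with r of at least 0.95. *Glra1*, the alpha-1 subunit of the glycine receptor, had means of 2291 in OFF-BC, 1085 in pan-BC, 546 for ON-BC, 1.76 for rods and 6.73 in blue cones. For *Scn1a* they were *Cdh11*, *Flrt3* and *4921511H03Rik* (r = 0.996, 0.995 and 0.995, of 809 genes), and for *Scn2b* *Prmt1*, *Mpnd* and *Reep5* (0.989, 0.988 and 0.984, of 467). *Scn8a* was closest to *Rbm26*, *Kcnq1ot1* and *Zfp839* (0.986, 0.984 and 0.982, of 105). No gene reached 0.95 with *Scn3b*, for which *Cd68*, *Frrs1* and *Slc25a15* came closest (0.919, 0.915 and 0.903). Between members, r was 0.97 for *Scn1a* with *Scn3a* and 0.07 for *Scn1a* with *Scn3b*. The points share libraries and fall into bipolar and photoreceptor groups, so r includes the difference between these groups. No r was computed within a group.

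Open chromatin was then examined at the same genes. Of the 41 regions, 18 belonged by nearest start site to *Scn8a*, 6 each to *Scn3a* and *Scn3b*, 5 to *Scn1a*, 3 to *Scn2b*, 2 to *Scn9a* and 1 to *Scn4b*. Introns of RefSeq transcripts held 24, exons touched 5 and 12 were intergenic. All but 1, at *Scn8a*, passed the filter on low counts. Between pan-BC and rods, 22 of the 40 tested were called more open in pan-BC, where 40.3% of all regions were, and 1 more open in rods, where 11.2% were. Between pan-BC and blue cones, 17 were called more open in pan-BC (28.8% of all regions) and 4 in blue cones (7.13%). The median log2 difference between pan-BC and rods was 2.82 over these regions and 1.16 over all regions tested.

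At *Scn3a*, all 6 regions were called more open in pan-BC than in rods and than in blue cones. The promoter region, centred 130 bp upstream of the start site, had normalized counts of 64.0 and 69.6 in pan-BC, 71.7 and 76.1 for ON-BC, and 75.4 and 54.5 in OFF-BC. It had 1.56 and 0 for rods, 0 and 2.89 in blue cones, and 3.07 and 8.45 for green cones. The promoter was thus open in each bipolar population and near 0 in photoreceptors, with a log2 difference of 5.40 ± 0.68 between pan-BC and rods (SE, adjusted p = 1.8e-05, limma). ON-BC and OFF-BC overlapped there (log2 difference 0.20 ± 0.68, adjusted p = 1, limma).

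Regions in the introns of *Scn3a* divided ON-BC from OFF-BC, and in the direction opposite to the RNA. The region 73351 bp into the gene had 38.8 and 41.0 for ON-BC against 2.69 and 1.95 in OFF-BC (log2 difference 3.63 ± 0.72, adjusted p = 0.0193, limma). The region 34824 bp into the gene had 41.8 and 41.0 against 0 and 6.81 (3.92 ± 0.95, adjusted p = 0.0450, limma). Another, 84682 bp into the gene, had 56.7 and 52.7 against 5.39 and 3.89 and just missed the threshold (3.32 ± 0.78, adjusted p = 0.0534, limma). All 3 were more open in every ON-BC library. The remaining intronic regions leaned the other way: the one at 14920 bp had 28.4 and 13.2 for ON-BC against 93.0 and 38.9 in OFF-BC, and the one at 96000 bp had 20.9 and 19.0 against 64.7 and 38.9, and neither passed (adjusted p = 0.859 and 1, limma). *Scn3a* RNA was 3.79-fold higher in OFF-BC. The second of the ON-BC regions holds none of the motifs searched, and the first holds 2 E-boxes, as printed above.

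At *Scn1a*, all 5 regions were called more open in pan-BC than in rods and none between ON-BC and OFF-BC. The intronic region 72645 bp from the start site had 60.01 and 86.7 in pan-BC, 77.6 and 117 for ON-BC, and 44.5 and 38.0 in OFF-BC. It had no read in rods or blue cones, and 6.92 and 5.63 for green cones. In pan-BC it was at least 33.6-fold higher than in rods and 24.2-fold higher than in blue cones, against a limit of 3 reads per library. Its sequence holds 2 E-boxes. It was more open in both ON-BC libraries than in OFF-BC (log2 difference 1.20 ± 0.57, adjusted p = 1, limma), while *Scn1a* RNA was higher in OFF-BC. No region of the table lay in the promoter window of *Scn1a*, from 1000 bp upstream to 100 bp downstream of its start site. The nearest, 490 bp into the gene, is also the promoter of Gm13629.

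Between *Scn1a* and *Scn9a* the nearest start site is a poor guide. A region in an intron of *Scn9a*, also inside Gm13629 and 96064 bp from the *Scn9a* start site, had 54.4 and 62.7 in pan-BC and 61.2 and 82.0 for ON-BC, against 8.08 and 5.84 in OFF-BC, 1.56 and 1.36 for rods, and 0 and 0.723 in blue cones. It was 10.3-fold higher in ON-BC than in OFF-BC (log2 difference 3.19 ± 0.72, adjusted p = 0.0473, limma), a call lost with the replicate number as a block (0.0526). *Scn9a* itself had at most 20 reads in an RNA library. A region 9612 bp upstream of *Scn9a* was open in bipolar cells at 27.3 to 91.6 and at or under 4.34 for rods and blue cones, with 6.15 and 2.82 for green cones.

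Unlike that of *Scn3a*, the promoter of *Scn8a* was open in all populations. The region at its start site, 81.5% G and C, had 131 and 98.1 in pan-BC, 122 and 135 for ON-BC, 119.9 and 122 in OFF-BC, 297 and 301 for rods, 171 and 176 in blue cones, and 183 and 192 for green cones. Rods, with less *Scn8a* RNA than bipolar cells, thus had the highest count there. The log2 difference of pan-BC from rods, -1.39 ± 0.19, did not pass by limma (adjusted p = 0.0555) and did by edgeR (9.3e-04), with a pseudocount of 0.5 (0.0469) and without pan-BC replicate 1 (0.0158). A second promoter region, 803 bp before the start site, was lower throughout, at 2.99 to 17.6 in bipolar cells and 9.86 to 47.5 in photoreceptors.

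Other regions of *Scn8a* were unequal in each direction. The intronic region 16294 bp from the first start site had 116 and 132 for rods, 46.6 and 53.5 in blue cones and 41.5 and 67.6 for green cones, against 6.40 and 5.70 in pan-BC, and it was the only one of the 41 called more open in rods than in pan-BC (log2 difference of pan-BC from rods -4.15 ± 0.51, adjusted p = 3.1e-05, limma). It holds a pair of TAATCC matches 3 bases apart. The intronic region at 54286 bp was open in cones, with 80.3 and 75.9 in blue cones and 134 and 189 for green cones, against 6.23 and 13.6 for rods and 8.80 and 1.14 in pan-BC. It was the only one of the 41 called between rods and blue cones (log2 difference -2.95 ± 0.63, adjusted p = 0.0347, limma), where 8.56% of all regions were called in that direction, and the call was lost with a pseudocount of 0.5 (0.0602) and without rod replicate 1 (0.276), blue cone replicate 1 (0.153) or blue cone replicate 2 (0.127), all by limma. Regions open in bipolar cells and near 0 in rods lay between the 2 start sites, such as one 12601 bp before the second with 65.6 and 50.7 in pan-BC and 4.67 and 4.74 for rods (log2 difference 3.36 ± 0.49, adjusted p = 3.0e-04, limma).

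A region 9480 bp upstream of *Scn8a* was the one called more open in OFF-BC. It had no read in either ON-BC library, 13.5 and 22.4 in OFF-BC, 4.80 and 10.8 in pan-BC, 3.89 and 9.49 for rods, 19.4 and 30.4 in blue cones, and 48.4 and 35.2 for green cones. OFF-BC were at least 4.04-fold higher than ON-BC against the limit of 3 reads per library (adjusted p = 0.00287, limma). A further region called in that direction lies in an intron of *Scn8a* but nearest to the start site of *Fignl2*, with 2.99 and 2.93 for ON-BC, 26.9 and 15.6 in OFF-BC, and 84.2 and 95.4 in blue cones (log2 difference of ON-BC from OFF-BC -2.44 ± 0.47, adjusted p = 0.0463, limma). It was named after its values were seen. Cone marker RNA was higher in OFF-BC than in ON-BC in the RNA libraries, and the part of cone chromatin in these 2 results was not tested.

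Between ON-BC and OFF-BC, 3 of the 40 tested regions were called more open in ON-BC, where 4.58% of all regions were, and 1 more open in OFF-BC, where 2.80% were. The region at 73351 bp of *Scn3a* is named here beyond the rule used for regions, after its values were seen. With 2 libraries a population the calls were few and unsteady: leaving out 1 library gave 1 to 2 calls, and the regions at 34824 bp of *Scn3a* and in *Scn9a* were lost with a pseudocount of 0.5 (adjusted p = 0.103 and 0.134, limma). The region at 73351 bp was lost without either ON-BC library or OFF-BC replicate 2 (adjusted p = 0.0599 to 0.0764, limma). That in *Scn9a* was lost without any 1 of the 4 libraries (0.105 to 0.22). The region at 34824 bp was lost without either ON-BC library or OFF-BC replicate 1 (0.138 to 0.487), as was the one nearest to *Fignl2* (0.0948 to 0.295), and the region upstream of *Scn8a* kept its call in each case.

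**Figure D4:**
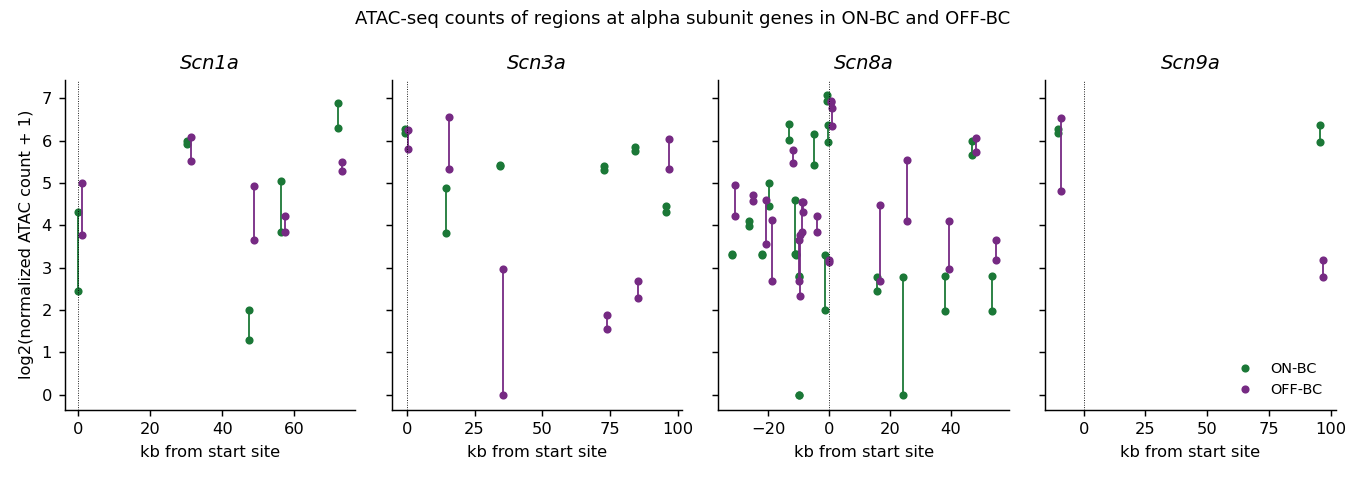
Normalized ATAC-seq counts on the log2(count + 1) scale of regions at 4 alpha subunit genes in the 2 ON-BC and 2 OFF-BC libraries, by distance from the nearest start site of the gene, with the populations offset slightly and lines joining the libraries of one. At *Scn3a*, regions at 34824, 73351 and 84682 bp are at 38.8 or more in ON-BC and 6.81 or less in OFF-BC, while the promoter overlaps.

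At the beta subunit genes, the promoter region of *Scn2b*, 47 bp before the start site at its centre, had 23.2 and 37.1 in pan-BC, 14.9 and 38.1 for ON-BC, and 32.3 and 31.2 in OFF-BC. It had 1.56 and 0 for rods and no read in blue or green cones. The difference from rods was 4.25 ± 0.73 on the log2 scale (adjusted p = 5.6e-04, limma), and against blue cones pan-BC were at least 9.96-fold higher at the limit of 3 reads per library. *Scn2b* RNA was nonetheless counted in blue cones at 15.8 to 59.2. The region 2033 bp upstream was called in the same direction against rods (4.01 ± 0.66, adjusted p = 4.6e-04, limma). One 4067 bp into the gene was open at 24.9 to 58.4 in bipolar cells, rods and blue cones, with 20.7 and 14.1 for green cones.

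At *Scn3b* the promoter region 42 bp before the start site had 19.2 and 19.4 in pan-BC, 34.3 and 23.4 for ON-BC, 13.5 and 5.84 in OFF-BC, 1.56 and 0 for rods, 13.0 and 7.23 in blue cones, and 23.1 and 15.5 for green cones. Rods were lowest, as they were for *Scn3b* RNA, but pan-BC were above blue cones, unlike the RNA. The difference of pan-BC from rods was 3.67 ± 0.65 (adjusted p = 0.00103, limma). Of the 3 regions 22246 to 27534 bp upstream, all were called more open in pan-BC than in rods and none between ON-BC and OFF-BC. A further promoter region, 763 bp before the start site, was at 0 to 18.8 in bipolar cells, rods and blue cones. The single region of *Scn4b*, in an intron, had 24.5 to 36.6 in bipolar cells and 7.45 to 25.9 for rods and blue cones, although the gene's RNA was at 0 in both. Green cones had 3.07 and 16.9 there.

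**Figure D5:**
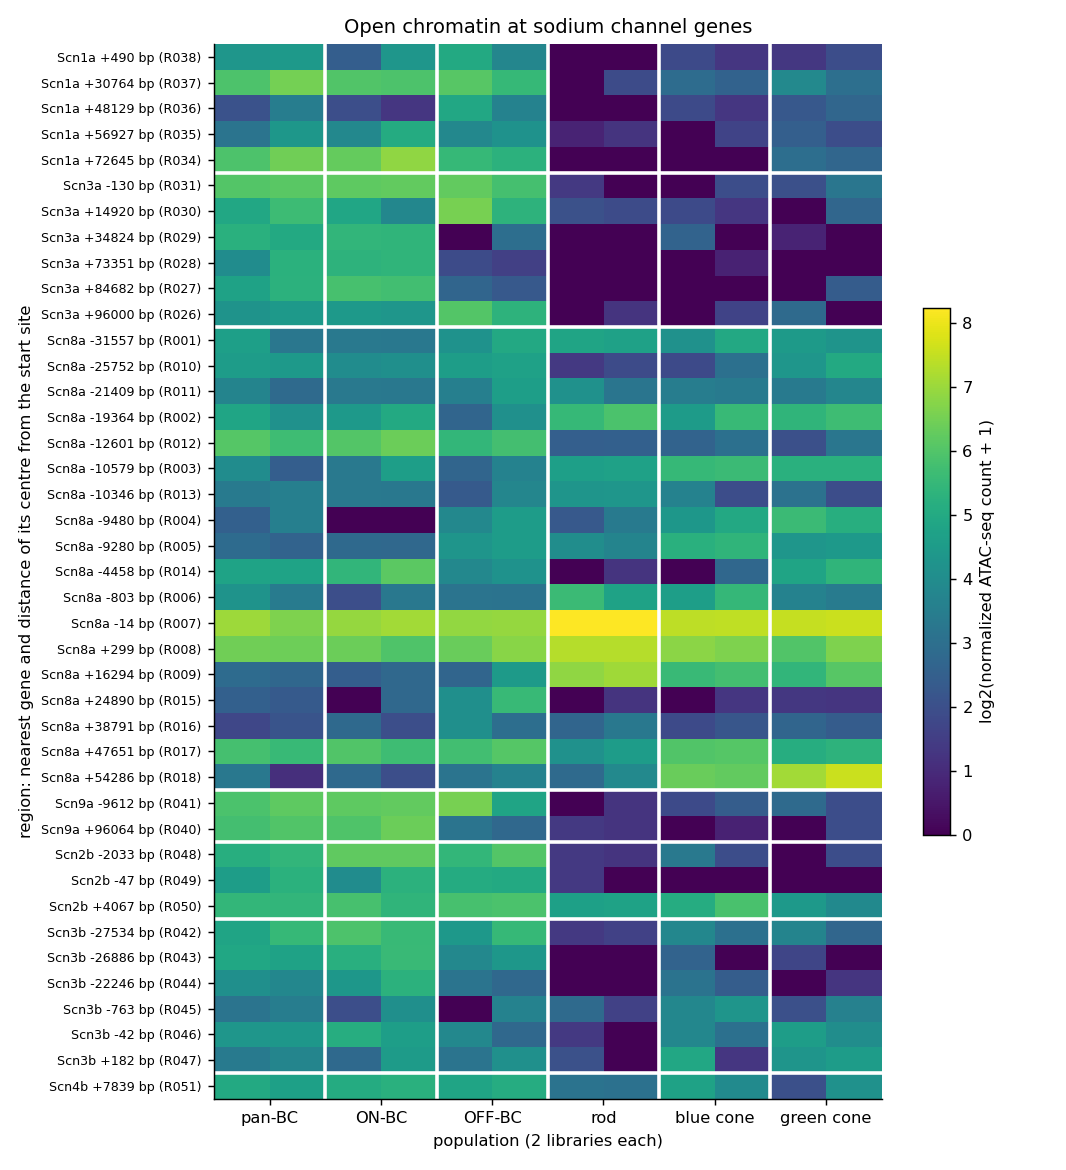
Normalized ATAC-seq counts, as log2(count + 1) by colour, of the 41 regions (rows, by nearest sodium channel gene and distance of the region's centre from its start site) in 12 libraries, 2 for each of 6 populations (columns). Regions of *Scn3a* and *Scn1a* are at 4 or more on this scale in most bipolar libraries and low in rods, while the start site of *Scn8a* is bright in all columns.

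Of the 41 regions, 9 (22.0%) held TAATCC, against 21.8% of all regions, 1 (2.44%) held TAATTA or TAATTG, against 11.4%, and 16 (39.0%) held CAGNTG, against 50.8%. In the 250 bases upstream of the start sites that the RefSeq promoter table holds for *Scn1a*, *Scn9a*, *Scn2b*, *Scn4b* and *Scn8a*, TAATCC was absent, where 6.25% of all 32851 promoters held it. These 250 bases were 68.0% G and C with 30 CG pairs at the first start site of *Scn8a*, open in all populations, and 38.4% with 1 CG pair at *Scn2b* (median of all promoters 52.4% and 6).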

How the data were processed

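Fluorescent retinal cells were sorted and profiled by RNA-seq (15 libraries) and ATAC-seq (12). The authors aligned RNA-seq reads to GRCm38 with STAR 2.7.0d with HTSeq counts per RefSeq gene, and aligned ATAC-seq reads with Bowtie2, removed duplicates with Picard, kept short fragments and called peaks with MACS2. The cDNA kit keeps no strand. The signal values in the deposited tables are read counts that the authors divided by 1 size factor per library: all 230384 gene values and 1212862 region values above 0 (100.0% each) came out as whole reads within 0.01. Since the values are normalized, limma 3.58.1 was fitted on log2(value + 1), with each population as a level and every library of the assay included, after filterByExpr on recovered reads (14024 of 24062 genes, 108448 of 110715 regions). The function treat tested against a log2 fold change of 1, with Benjamini-Hochberg adjustment over all features and calls below 0.05. Alternatives were edgeR 4.0.16 and DESeq2 1.42.0 on recovered reads, other pseudocounts, filters, scalings and library sets. Steps were tested on simulated data, in which each gene or region had the same mean in all populations apart from changes put into ON-BC and OFF-BC. Genes near 0 in photoreceptors only, such as *Scn3a*, were thus not covered.

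Named were all 7 members, list genes called between ON-BC and OFF-BC or at 0 in a population, the 3 genes most like each member, promoter regions, and for each member the called region with the largest change in ON-BC against OFF-BC and pan-BC against rods. Other regions and list genes were named after their values were seen. The members and lists were chosen with earlier results of these data known. Regions were assigned to the nearest of the start sites of 45755 RefSeq transcripts. Same-numbered ON-BC and OFF-BC libraries of an assay came from mice of the same age, and the labels do not say whether they shared mice or a sort, so the replicate number was used as a block in an alternative only. Nor do the labels say whether replicates came from separate animals, so p-values measure the spread between these samples. Per-library peak lists were not used. Some genes of the lists are not reported here.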

Additional observations from a re-analysis of the deposited data

Results flagged for a closer look

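Results were set apart here where the log2 differences of pan-BC from rods and from blue cones had opposite signs, whether or not they passed. The difference between the 2 photoreceptor types itself had to pass the test. For *Scn3b* RNA the log2 difference of pan-BC was 1.49 from rods and -1.92 from blue cones, and neither passed (adjusted p = 0.377 and 0.143, limma). That of rods from blue cones was -3.42 (adjusted p = 0.0022, limma). The other was a region in an intron of *Scn9a*, 67321 bp from the start site of Gm13629 (R039). There the log2 difference of pan-BC was 3.05 from rods (adjusted p = 0.0111, limma), a call lost without pan-BC replicate 2 (0.188). From blue cones it was -0.80 ± 0.71 (SE) and did not pass (adjusted p = 0.919, limma). That of rods from blue cones was -3.85 (adjusted p = 0.00715, limma), a call lost without blue cone replicate 1 (0.0593). Groups of 2 or 3 libraries were too small to test single libraries as outliers.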

How the results depend on the processing

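Of 815 log2 differences of the 5 tested genes under alternatives, 769 kept their direction and side of the threshold, 35 came to pass, 9 no longer passed and 2 turned sign (pan-BC from ON-BC for *Scn2b*, -0.0329 without ON-BC replicate 1 and up to 0.15 without another library, and pan-BC from OFF-BC for *Scn8a*, -0.00988 without OFF-BC replicate 1 and up to 0.20 without another), which also changed the order of populations of those genes and of no other. Of 350 region differences, 315 kept both, 30 no longer passed and 5 came to pass. The number of genes called between ON-BC and OFF-BC rose from 0 to 1 with a pseudocount of 5, edgeR, DESeq2, 2 populations or 9 libraries in the fit, and to 2 against no change. Against no change it was 5 between pan-BC and rods and between OFF-BC and rods (3 each with the settings used in the text above) and 4 between rods and blue cones. Between OFF-BC and rods *Scn3b* also passed under the alternatives given above. Between rods and blue cones it rose from 1 to 2 with a pseudocount of 0.5, library total scaling, edgeR, DESeq2 or the replicate block, and leaving out a library gave 1 to 3. For regions, ON-BC against OFF-BC gave 2 with a pseudocount of 0.5 and 8 against no change, and 1 to 2 without a library (4 with the settings used in the text above). Pan-BC against blue cones gave 11 without pan-BC replicate 2 and up to 16 without another library (21 with all). Rods against blue cones gave 2 with a pseudocount of 0.5, 5 by edgeR, 9 against no change, 3 with regions assigned by gene span, and 0 to 1 without a library. The cause was not tested. With library total scaling the median of all genes moved by 0.28 to 0.35 in bipolar against photoreceptor comparisons. Same-numbered ON-BC and OFF-BC libraries, from mice of the same age, correlated at -0.08, 0.22 and -0.06 in their deviations (RNA-seq), which does not settle whether they were paired. The replicate block added the *Scn2b* call between rods and blue cones counted above and lost the region in *Scn9a* (adjusted p = 0.0526, limma), and changed no other call. Over all genes, the test against no change called 1.83 to 6.18 times as many.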
